A study of Mus musculus with 4 samples.

Results

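The genes of the MLL, menin and DOT1L complexes were examined as a set of 10 among 21887 protein-coding genes. They are Kmt2a, Men1, Psip1, Wdr5, Mllt1, Mllt3, Dot1l, Mllt10, Aff1 and Aff4, chosen by name from what their products do and found in the mouse RefSeq gene table. The rule itself uses no measured value, although the set was proposed with earlier results of these data known. For each gene, every deposited peak that overlapped the gene body or the 10 kb on either side was read from each of 4 peak lists, which gave 90, 168, 172 and 120 peaks.

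The lists came from CUT&Tag with an antibody against Ruvbl2, an AAA+ ATPase of chromatin remodelling and co-chaperone complexes. In CUT&Tag an antibody brings a transposase to chromatin, and the cut fragments are sequenced. Haematopoietic stem cells (HSC) were sorted from bone marrow of Nup214fl/+ mice as CD48-CD150+LSK cells. Leukaemia stem cells (LSC) were sorted from MLL-AF9-driven Nup214fl/+ mice as Lin-Sca-1-c-Kit+ cells that were also CD16/32+ and CD34+. There were 2 libraries per group, and values below are given in the order HSC replicate 1, HSC replicate 2, LSC replicate 1, LSC replicate 2. Both groups thus carried 1 floxed Nup214 allele, and no Cre is named in the labels. How MLL-AF9, the fusion of the products of 2 of these genes, Kmt2a and Mllt3, was introduced is not given, nor the age of the mice. A peak that arose from a fusion sequence mapped to either gene could not be told apart from one at the normal allele. The LSC gate also describes granulocyte-monocyte progenitors, so leukaemia and maturation cannot be told apart between the groups. Whether the 2 libraries of a group came from separate animals is not stated, so the spread between them may be technical.

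MLL1, the product of Kmt2a, methylates the tail of histone H3 at promoters and is held on chromatin by menin and LEDGF, while WDR5 is a core subunit of the whole MLL and SET1 family of complexes. ENL and AF9 read acylated lysines through a YEATS domain. They link to DOT1L, which methylates the core of histone H3 together with AF10, and to the AF4 family scaffolds of the super elongation complex. In MLL-rearranged leukaemia the fusion protein carries these partners to MLL target genes, which is why menin and DOT1L are drug targets in that disease.

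Promoter sequences of 5 genes are shown because their peaks span the range found, from a peak at the start site in every library to none in any. They are RefSeq promoters of GRCm38.p6, from 250 bases before to 50 after the start site, written 5′ to 3′ on the gene's strand. Capitals mark matches on either strand to GGGCGG (SP/KLF), CCAAT (NF-Y), GGAAG (ETS), CACGTG (E-box), TGACGTCA (CRE), TATAAA (the TATA box), ACTACAA (Zfp143) and GATGGC (YY1), with overlapping matches counted separately. Mllt1 lies at chr17:56935339-56935638 on the minus strand, Wdr5 at chr2:27514897-27515196 on the plus strand, Kmt2a at chr9:44881240-44881539 on the minus strand, Men1 at chr19:6334729-6335028 on the plus strand and Aff4 at chr11:53350517-53350816 on the plus strand.
Mllt1: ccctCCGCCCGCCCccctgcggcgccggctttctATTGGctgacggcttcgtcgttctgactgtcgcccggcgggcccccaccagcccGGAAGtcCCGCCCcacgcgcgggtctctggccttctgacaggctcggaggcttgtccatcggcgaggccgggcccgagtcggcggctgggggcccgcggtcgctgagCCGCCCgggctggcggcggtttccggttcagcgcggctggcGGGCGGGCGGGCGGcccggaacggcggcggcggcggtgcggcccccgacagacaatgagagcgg
Wdr5: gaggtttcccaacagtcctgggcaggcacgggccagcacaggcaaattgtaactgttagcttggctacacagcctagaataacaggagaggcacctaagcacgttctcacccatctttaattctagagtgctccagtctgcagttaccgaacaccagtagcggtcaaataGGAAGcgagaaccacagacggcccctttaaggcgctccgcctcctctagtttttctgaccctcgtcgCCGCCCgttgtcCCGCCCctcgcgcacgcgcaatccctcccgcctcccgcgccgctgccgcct
Kmt2a: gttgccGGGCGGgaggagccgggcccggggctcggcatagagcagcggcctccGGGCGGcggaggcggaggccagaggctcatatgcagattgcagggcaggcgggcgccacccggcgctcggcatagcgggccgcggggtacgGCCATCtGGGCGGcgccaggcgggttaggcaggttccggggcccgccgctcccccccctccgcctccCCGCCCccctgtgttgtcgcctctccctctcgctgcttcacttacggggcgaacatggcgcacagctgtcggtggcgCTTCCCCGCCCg
Men1: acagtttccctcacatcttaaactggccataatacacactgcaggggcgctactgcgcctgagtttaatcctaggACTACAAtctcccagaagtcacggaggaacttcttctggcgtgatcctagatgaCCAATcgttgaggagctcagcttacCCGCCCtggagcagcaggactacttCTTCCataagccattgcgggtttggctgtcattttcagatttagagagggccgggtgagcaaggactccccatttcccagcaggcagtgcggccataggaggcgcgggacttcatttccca
Aff4: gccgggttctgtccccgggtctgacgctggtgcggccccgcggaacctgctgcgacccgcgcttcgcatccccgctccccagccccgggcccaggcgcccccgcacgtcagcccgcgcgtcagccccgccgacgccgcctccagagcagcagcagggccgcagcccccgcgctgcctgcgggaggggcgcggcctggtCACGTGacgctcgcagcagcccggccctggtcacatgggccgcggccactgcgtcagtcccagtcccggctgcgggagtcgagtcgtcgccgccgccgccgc
GGGCGG occurred 7 times in the Mllt1 promoter, 5 times in that of Kmt2a, 2 times in that of Wdr5, 1 time in that of Men1 and 0 times in that of Aff4. Of all 21263 promoters in the table, 46.2% hold it. Men1 alone of the 5 holds ACTACAA, which is in 3.6% of promoters, and Aff4 alone holds CACGTG, which is in 7.84%. Kmt2a holds GATGGC, as do 13.5% of promoters. CCAAT was found in the Mllt1 and Men1 promoters and in 38.2% of all, and GGAAG in each of the 5 but Aff4 and in 72.4% of all. CpG dinucleotides numbered 46 in Mllt1, 22 in Wdr5, 36 in Kmt2a, 11 in Men1 and 44 in Aff4, beside a median of 13 over all promoters (quartiles 4 and 24). TGACGTCA (2.23% of promoters) and TATAAA (12.6%) matched none of the 5.

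Peaks had been called in each library separately. The lists held 161655 to 286107 peaks, and read totals are not in them, so sequencing depth is not known. The spacing of the fold values gave a background of 2.66, 4.34, 4.46 and 3.72 fragments. To compare lists of equal length, the 20000 strongest peaks of a library by −log10 p were taken and are called listed. The fold of a peak is the authors' value, read as its pileup over the background of its own library, with 1 fragment added to each. It serves here to describe peaks within that library, and ranks from lists of unequal length show no change. Listing stopped at a fold of 22.7, 12.7, 28.4 and 18.2. A gene end was taken as the 1000 bp on each side of either annotated end. With 2 libraries against 2, an exact two-sided permutation test cannot give a p below 0.333, so no test between HSC and LSC was made. Counts are set beside the same counts over all protein-coding genes. The labels mention no control library. They name a goat anti-rabbit secondary antibody without saying in which species the Ruvbl2 antibody was raised, and dependence of the peaks on Ruvbl2 was not tested.

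Ruvbl2 CUT&Tag peaks lay at the ends of several of these genes, most steadily at Mllt1 and Wdr5, but no gene of the set was listed in all 4 libraries. Listed peaks lay at an end of 0 of the 10 genes in HSC replicate 1, where 10.6% of all genes had one. HSC replicate 2 had 5 (Kmt2a, Men1, Mllt1, Psip1 and Wdr5) beside 25.1% of all genes. LSC replicate 1 had 2 (Mllt1 and Wdr5) beside 11.0%, and LSC replicate 2 had the same 2 beside 25.5%. With 10 genes, 1 gene is worth 10 percentage points, so these counts lie within 3 genes of the background, above it in 2 libraries and below it in 2. Listing in all 4 libraries was met by 0 of 10 (2.91% of all genes), listing in both LSC and neither HSC library by 0 (0.932%), and listing in both HSC and neither LSC library by 0 (0.873%). Both LSC libraries listed 2 of the 10, beside 6.81% of all genes. The count thus differed by 5 genes between the HSC libraries and by 0 between the LSC libraries. Without HSC replicate 1, Mllt1 and Wdr5 were listed in every remaining library, and Kmt2a, Men1 and Psip1 were listed in HSC replicate 2 and in neither LSC library. Without HSC replicate 2, Mllt1 and Wdr5 became genes listed in LSC alone. The remaining 5 genes, Mllt3, Dot1l, Mllt10, Aff1 and Aff4, were listed at an end in no library, which held for 60.1% of all genes.

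**Figure D1:**
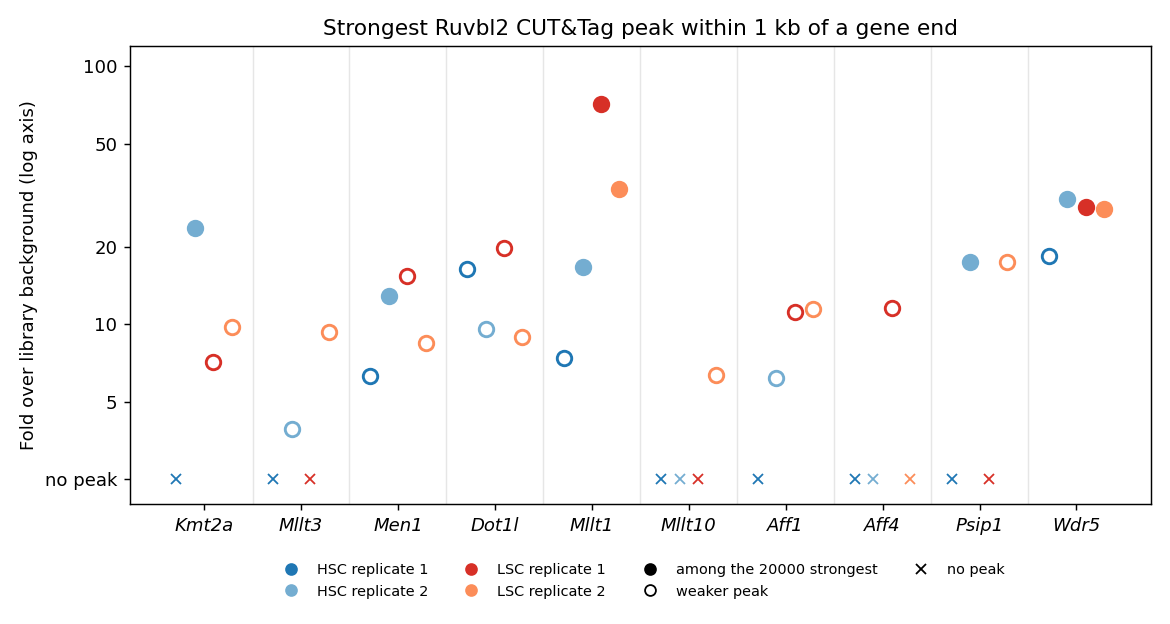
Fold over library background (log axis) of the strongest peak within 1 kb of either annotated end of each gene, 1 point per library, filled where the peak is among the 20000 strongest of its library and crossed at the bottom where there is no peak. Mllt1 and Wdr5 have 3 filled points each, and Mllt3, Dot1l, Mllt10, Aff1 and Aff4 have none.

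Counting peaks of any strength, 4, 8, 7 and 9 of the 10 genes had a peak at an end, beside 38.2%, 64.5%, 47.6% and 58.8% of all genes. Men1, Dot1l, Mllt1 and Wdr5 had one in all 4 libraries, 4 of 10 beside 15.6% of all genes. A gene without a peak at its ends in any library was found in 0 of 10 cases, beside 12.3% of all genes. These weaker peaks often lay at different positions in different libraries, as the accounts of the single genes show.

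Menin, LEDGF, MLL1 and WDR5 form the part of the complex that sits at promoters. At Kmt2a (chromosome 9, 44803355 to 44881352, minus strand) there was no peak at either end in HSC replicate 1. In HSC replicate 2 a peak of fold 23.6 (rank 2385, pileup of 125 fragments) covered 44881492 to 44882682, with its summit 1140 bp upstream of the start site. Weak peaks of fold 7.14 (rank 160126) in LSC replicate 1 and 9.74 (rank 90502) in LSC replicate 2 had summits 713 bp downstream and 1509 bp upstream of it. The start region of Kmt2a was thus listed in 1 HSC library alone. The LSC replicate 2 peak overlapped it with a summit 369 bp away, and the LSC replicate 1 peak did not overlap it. HSC replicate 2 had a second listed peak of fold 15.2 (rank 10083) just upstream, at 44883007 to 44884368, where HSC replicate 1 had its nearest peak to the start site, of fold 15.6 (rank 57939). LSC replicate 1 had listed peaks inside the gene, of fold 55.6 (rank 5712) at 44872352 to 44872650 and fold 34.0 (rank 13654) at 44811509 to 44811849. Neither HSC replicate 1 nor LSC replicate 2 listed any of the 7 and 8 peaks they had across Kmt2a and its flanks.

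Men1, which encodes menin, is the shortest gene of the set (chromosome 19, 6334979 to 6340894, plus strand). Its start region was peaked in HSC replicate 2, with a fold of 12.9 (rank 18508) and a summit 517 bp downstream of the nearest annotated start site, and in LSC replicate 1, with a fold of 15.4 (rank 70314) and a summit 543 bp downstream. These summits were 26 bp apart, at 6335556 and 6335582, although only the first counted as listed. Neither peak overlapped the promoter sequence shown above. HSC replicate 1 and LSC replicate 2 had no start-site peak there. All 4 libraries had an unlisted peak at the 3′ end, with folds of 6.29, 12.5, 8.78 and 8.47 (ranks 145172, 20828, 136491 and 115934). In HSC replicate 2 this peak fell just outside the list, so its contrast with the listed start region rests on the list limit. The 3′ end lies beside the neighbouring gene Map4k2, whose nearer annotated end is at 6340990, so the peak cannot be given to either gene. A listed peak of fold 32.5 (rank 9877) in HSC replicate 1 lay in the downstream flank, at 6345569 to 6346162, inside Map4k2.

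Psip1 encodes LEDGF, which tethers menin and MLL1 to chromatin (chromosome 4, 83455680 to 83486463; its strand is not in the tables used). Its higher-coordinate end had a peak in both replicate 2 libraries and in neither replicate 1 library. The folds were 17.4 in HSC replicate 2 (rank 5956) and 17.4 in LSC replicate 2 (rank 22885), and the summits lay at 83486567 and 83486604. The equal folds fell on opposite sides of the 2 list limits, so the listing in HSC alone rests on the limit. Inside the gene, peaks of all 4 libraries joined into a region from 83480288 to 83481568, with folds of 42.9, 18.9, 18.9 and 10.8. Their summits were spread over 1165 bp, so the libraries shared the region and not a single position.

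Wdr5 (chromosome 2, 27515147 to 27536535, plus strand) had a start-site peak in all 4 libraries. The folds were 18.3 (rank 36481), 30.5 (rank 1166), 10.4 (rank 116688) and 28.0 (rank 4539). The replicate 2 libraries were high and the replicate 1 libraries low in both cell types, so HSC and LSC overlapped. Summits lay 1093, 309, 66 and 399 bp upstream of the start site, and the peaks covered 0, 221, 270 and 80 of the 300 promoter bases. LSC replicate 1 owed its listing to a peak at the 3′ end, of fold 28.4 (rank 19876), which equals the fold of the weakest listed peak of that library. Starting 2843 bp past the 3′ end, a region from 27539378 to 27541776 had peaks in all 4 libraries, with folds of 22.1, 12.4, 57.6 and 51.0. Both LSC libraries listed a peak there, and in both HSC libraries the peak ranked just outside the list, at 21278 and 22132. No annotated end of another protein-coding gene lay within 1 kb of it.

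**Figure D2:**
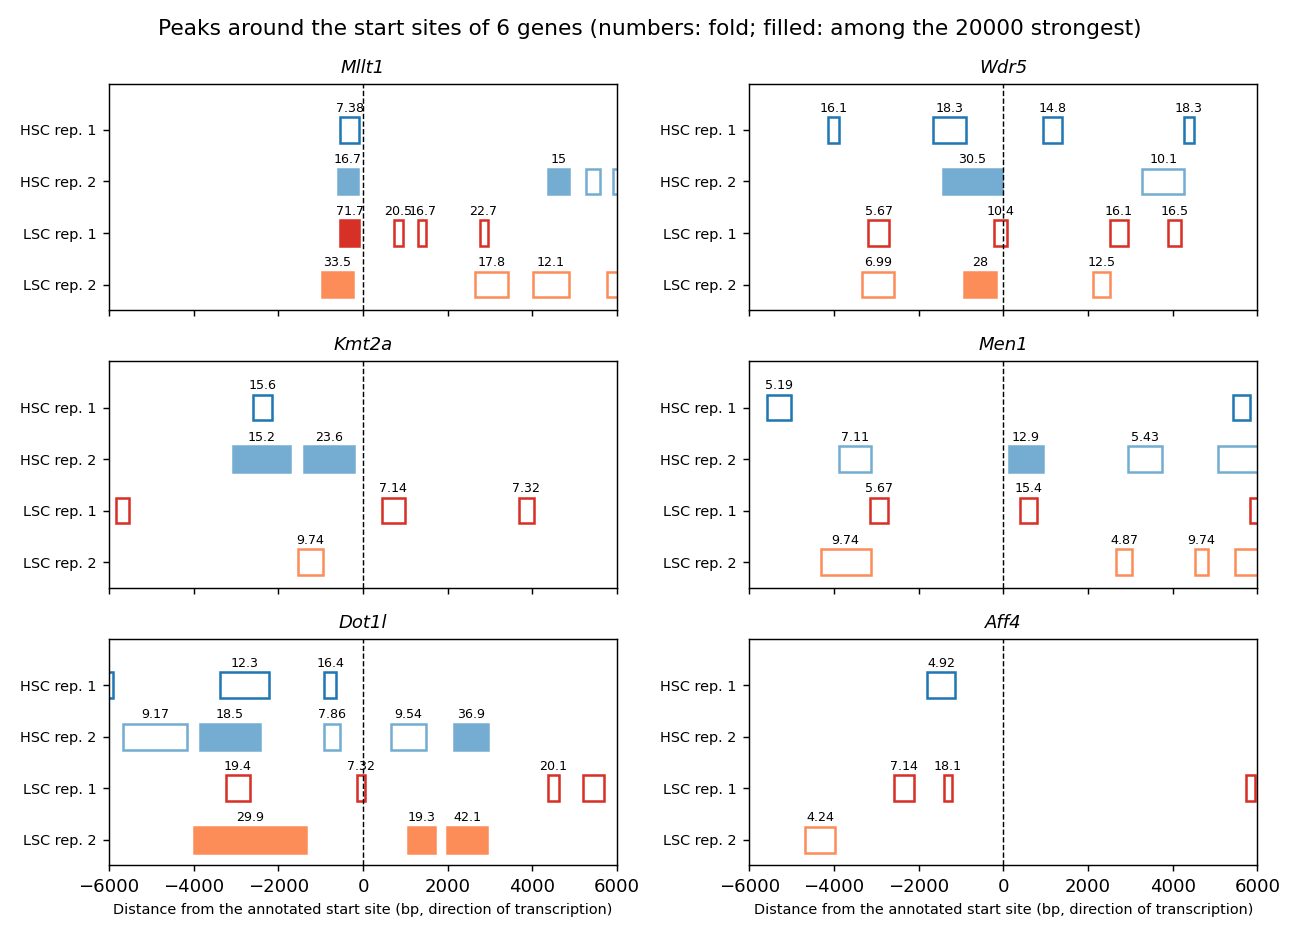
Peaks within 6 kb of the annotated start site of 6 genes, by distance in bp in the direction of transcription (Men1: its most upstream start site), 1 row per library; box width is peak width, the number is the fold, and filled boxes are among the 20000 strongest peaks. The boxes of Mllt1 line up in all 4 rows, those of Wdr5, Kmt2a and Dot1l shift between rows, and Aff4 has no box within 1 kb of its start site.

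ENL and AF9, encoded by Mllt1 and Mllt3, are paralogous readers, and their genes had unlike patterns of peaks. Mllt1 (chromosome 17, 56892608 to 56935509, minus strand) had a peak just upstream of its start site in every library. Its folds were 7.38 (rank 136700, pileup 26), 16.7 (rank 6887, pileup 88), 71.7 (rank 2978, pileup 391) and 33.5 (rank 2753, pileup 157). In 3 libraries the summits lay within 5 bp of each other, 321, 316 and 316 bp upstream of the start site, and that of LSC replicate 1 lay 208 bp upstream. Mllt1 and Wdr5 were the 2 genes with a start-site peak in all 4 libraries, and their summits spread over 113 bp and 1027 bp. In rank both LSC libraries placed it higher than either HSC library, but the HSC libraries themselves ranged from 6887 to 136700. The peaks covered 145, 120, 162 and 1 of the 300 promoter bases printed above, at the upstream end of the sequence. LSC replicate 1 also listed a peak at the 3′ end of the gene, with a fold of 38.1 (rank 11209).

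No library had a peak within 1000 bp of either annotated start site of Mllt3 (chromosome 4, 87769925 to 88033407, minus strand), the gene of the fusion partner AF9. Its ends had only weak peaks at the 3′ end, of fold 3.93 in HSC replicate 2 and 9.32 in LSC replicate 2. Across this gene, the longest of the set, and its flanks lay 18, 31, 30 and 20 peaks. Of these, 3, 0, 2 and 1 were listed. Per 100 kb that was 6.35, 10.9, 10.6 and 7.06 peaks, in each library below the median gene (7.35, 14.3, 10.7 and 10.9). The strongest peaks were in LSC replicate 1, with folds of 94.4 (rank 1016, at 87822311 to 87822536) and 68.8 (rank 3364, at 87945883 to 87946276). HSC replicate 1 listed a peak of fold 36.4 (rank 7447) at 88017928 to 88018343. Each of these listed peaks stood in 1 library, and no region of Mllt3 had peaks in all 4.

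DOT1L and its cofactor AF10 carry the methyltransferase activity on the histone core. Around Dot1l (chromosome 10, 80755101 to 80795461, plus strand) 1, 7, 1 and 11 of the 10, 23, 17 and 17 peaks were listed, the widest gap between replicates in the set. The start site itself had only unlisted peaks, the strongest with folds of 16.4, 9.54 and 7.32 and summits 772 bp upstream, 862 bp downstream and 43 bp upstream in HSC replicates 1 and 2 and LSC replicate 1, and none in LSC replicate 2. HSC replicate 2 also had a peak of fold 7.86 there, overlapping that of HSC replicate 1. Just outside the 1000 bp window LSC replicate 2 had a listed peak of fold 19.3 (rank 16233) at 80756275 to 80756897. This peak overlapped the HSC replicate 2 peak of fold 9.54. The strong signal lay further inside the gene: HSC replicate 2 had a fold of 36.9 (rank 745) at 80757341 to 80758164, and LSC replicate 2 a fold of 42.1 (rank 1533) at 80757196 to 80758127. Both replicate 2 libraries thus marked the same stretch, 2755 and 2669 bp past the start site, and neither replicate 1 library had a peak there. LSC replicate 1 instead listed a peak of fold 82.4 (rank 1807) at 80763065 to 80763769, which LSC replicate 2 overlapped with a fold of 18.6 (rank 18234). In addition, 2 regions had peaks in all 4 libraries. The upstream one, 80751206 to 80753845, had folds of 12.3, 18.5, 19.4 and 29.9. The downstream one, 80797238 to 80799439, had folds of 45.4, 19.5, 15.6 and 35.8 and lies at the ends of Plekhj1 and Sf3a2, to which it cannot be assigned apart from Dot1l.

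Mllt10, which encodes AF10 (chromosome 2, 18055160 to 18212390, plus strand), had no HSC peak within 1000 bp of a start site. At the most downstream of its start sites, position 18064585, LSC replicate 1 had a peak of fold 8.42 (rank 141336) and LSC replicate 2 one of fold 21.2 (rank 11648). Their summits, 169 bp upstream and 890 bp downstream, were 1059 bp apart, so the peaks did not mark 1 position. Just outside that window HSC replicate 1 had a peak of fold 7.65 (rank 134663) at 18065705 to 18066258. It overlapped the LSC replicate 2 peak, so the region was not peaked in LSC alone. The strongest peak that LSC replicate 1 had in the set lay in Mllt10 too, with a fold of 146 (rank 197, pileup 797) at 18056860 to 18057329. Its summit lay 1196 bp downstream of the start site at 18055728, and the peak began just outside the 1000 bp window. No peak of the other 3 libraries overlapped this peak. HSC replicate 1 listed none of its 13 peaks across Mllt10, and HSC replicate 2 listed 1 of 21.

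The AF4 family scaffolds Aff1 and Aff4 bring elongation factors to chromatin. Aff1 (chromosome 5, 103692362 to 103855322, plus strand) had peaks within 1000 bp of a start site in HSC replicate 2 alone, with folds of 9.92 (rank 49960) and 5.24 (rank 180731). Past its 3′ end, at 103858486 to 103859876, all 4 libraries had a peak, with folds of 36.4, 14.4, 144 and 12.1. In LSC replicate 1 this peak ranked 202, and in LSC replicate 2 it ranked 52308 and was not listed, so the LSC libraries enclosed both HSC libraries. Inside the gene 3 more regions had peaks in every library, with folds of 36.1, 10.9, 26.7 and 8.05 at 103840191 to 103841476, 20.8, 6.18, 9.33 and 9.74 at 103752080 to 103752871, and 13.9, 7.30, 4.94 and 17.6 at 103775724 to 103777241. The region at 103752080 to 103752871 lies just outside the 1000 bp window, upstream of the start site at 103754162. None of its peaks was listed. Weak peaks near that start site were thus not confined to HSC replicate 2. Aff1 held more regions with peaks in every library than any other gene of the set. Its window with flanks is also long, 183 kb beside 41.4 kb for Wdr5 and 60.4 kb for Dot1l, the genes next in number. LSC replicate 1 had a further strong peak of fold 86.2 (rank 1495) in the gene body.

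Aff4 (chromosome 11, 53350640 to 53421830, plus strand) had no peak within 1000 bp of its start site in any library, despite a promoter with 44 CpG dinucleotides. Its 3′ end had a peak in LSC replicate 1 alone, with a fold of 11.5 (rank 103809). The strong peak in its downstream flank, at 53429722 to 53431907, had folds of 52.0 (rank 313), 88.4 (rank 1332) and 58.0 (rank 654) in HSC replicate 2 and LSC replicates 1 and 2, with summits within 61 bp of each other, and HSC replicate 1 had no peak there. It lies where the ends of Uqcrq, a respiratory chain subunit gene, and Gdf9, a growth factor gene, overlap, 7892 bp beyond Aff4. Of the 9 listed peaks that lay at the end of a gene outside the set, 4 were those in the flank of Aff4.

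**Figure D3:**
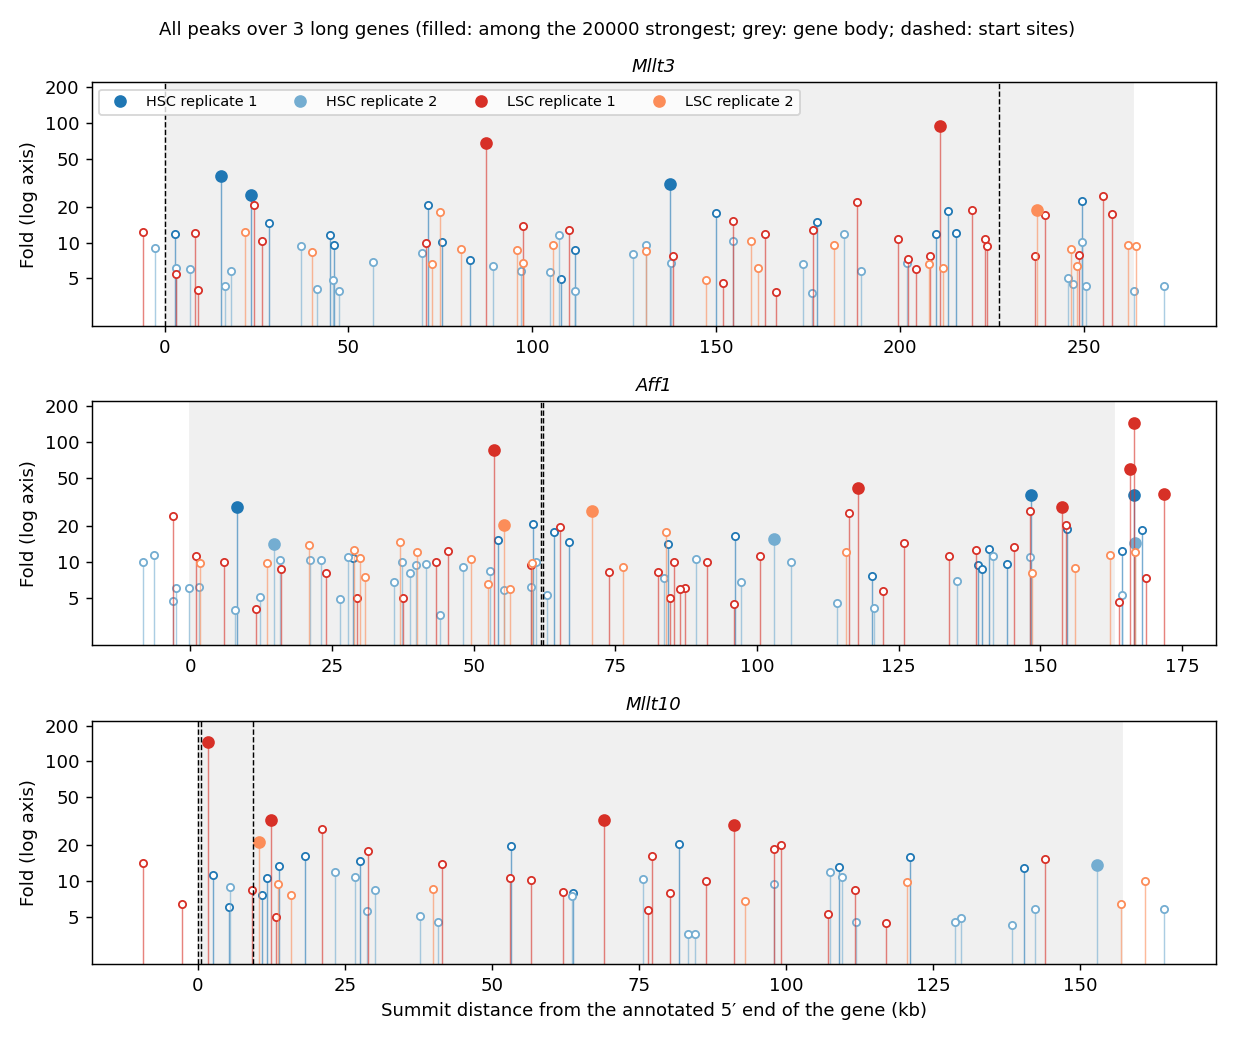
Fold (log axis) of every peak over Mllt3, Aff1 and Mllt10 against the distance of its summit from the annotated 5′ end in kb, coloured by library, with listed peaks filled, the gene body in grey and start sites dashed. Few filled points stand at the dashed lines. The tallest, such as the peak of fold 146 in Mllt10 and those of fold 94.4 and 68.8 in Mllt3, belong to LSC replicate 1. The peak of fold 146 had its summit 1196 bp downstream of a start site, close to a dashed line.

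Start sites were also taken alone, using the promoter table, which gives strand and holds 9 of the 10 genes. Peaks of any strength lay within 1000 bp of a start site in 3, 6, 6 and 4 of the 9, beside 28.1%, 54.8%, 35.3% and 50.8% of the genes in the table. Listed peaks did so in 0 of 9 in HSC replicate 1, where 9.03% of the 17492 genes in the table had one. They did so in 4 (Kmt2a, Men1, Mllt1 and Wdr5) in HSC replicate 2, beside 24.1%, in 1 (Mllt1) in LSC replicate 1, beside 9.54%, and in 3 (Mllt1, Mllt10 and Wdr5) in LSC replicate 2, beside 24.8%. Over all genes, listing at the start site went with CpG content: 6.23% of genes with 0 to 9 CpG were listed in HSC replicate 2, 31.2% with 10 to 19, 41.5% with 20 to 29 and 36.0% with 30 or more. The same classes gave 6.41%, 32.6%, 41.5% and 37.7% in LSC replicate 2. In replicate 1 they gave 3.68%, 10.5%, 14.4% and 13.1% in HSC and 3.39%, 11.0%, 14.9% and 15.5% in LSC. Genes were classed by their most CpG-rich start site. Of the 6 genes of the set in the richest class, Mllt1 with 46 CpG, Mllt10 with 43 and Kmt2a with 36 were listed at a start site in at least 1 library, and Dot1l with 49, Aff1 with 40 and Aff4 with 44 in none. In the class of 20 to 29, Wdr5 with 22 was listed in both replicate 2 libraries. Mllt3 in that class, with 29, was listed in none. Men1 with 11 to 16 at its annotated start sites was listed in 1.

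Across whole genes with their 10 kb flanks, peaks were common at these genes in every library. All 10 genes had a peak in all 4 libraries, as did 83.0% of all genes. A listed peak lay in 5 of the 10 in HSC replicate 1, beside 42.1% of all genes, in 9 in HSC replicate 2, beside 51.8%, in 9 in LSC replicate 1, beside 44.3%, and in 8 in LSC replicate 2, beside 52.0%. Long genes have more room for peaks. Per 100 kb the set, pooled over its genes, had 8.38, 15.6, 16.0 and 11.2 peaks, and the median gene had 7.35, 14.3, 10.7 and 10.9. The density was therefore near that of other genes in 3 libraries and above it in LSC replicate 1. The peaks of that library in the set were also the narrowest, with a median width of 356 bp beside 411.5, 554.5 and 507.5 bp. Over all ranked peaks LSC replicate 1 was the narrowest as well, with a median of 332 bp beside 394, 461 and 452 bp. Whether that width has a part in the count was not tested. Listed peaks numbered 9, 24, 25 and 22, of which 1, 4, 1 and 3 lay within 1 kb of the end of a gene outside the set. Gene bodies away from the ends held 6, 12, 16 and 10 of the listed peaks.

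**Figure D4:**
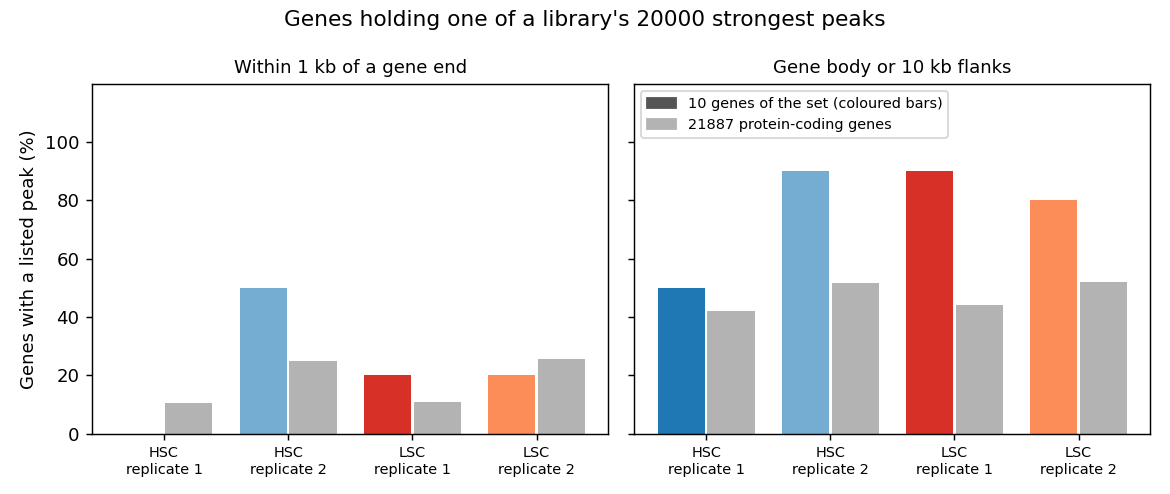
Share of genes (%) with 1 of the 20000 strongest peaks of each library within 1 kb of a gene end (left) and in the gene body or 10 kb flanks (right), for the 10 genes (coloured bars) and for 21887 protein-coding genes (grey bars). At gene ends the coloured bar is above the grey one in HSC replicate 2 and LSC replicate 1 and below it in the other libraries.

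Positions were shared between libraries for a minority of peaks. Overlapping peaks within the set merged into 406 regions, of which 308 (75.9%) came from 1 library, 70 (17.2%) from 2, 17 (4.19%) from 3 and 11 (2.71%) from all 4. Over the genome, with regions far from genes included, 721154 regions gave 84.2%, 12.8%, 2.37% and 0.595%. Merging followed any overlap of 1 bp from peak to peak, so the peaks of all 4 libraries in a region need not share a position. At the Wdr5 start site the HSC replicate 1 peak ended at 27514261 and the LSC replicate 1 peak began at 27514927. The 11 regions lay in 6 of the 10 genes, 4 in Aff1, 2 each in Wdr5 and Dot1l, and 1 each in Psip1, Mllt1 and Men1. Among all genes, 20.5% held such a region in the gene body or flanks, a share not matched for gene length. Genes with at least 1 peak in every library can still lack such a region, as Kmt2a, Mllt3, Mllt10 and Aff4 did. Without HSC replicate 1, 19 regions had peaks in every remaining library, among them the one beside Aff4.

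**Figure D5:**
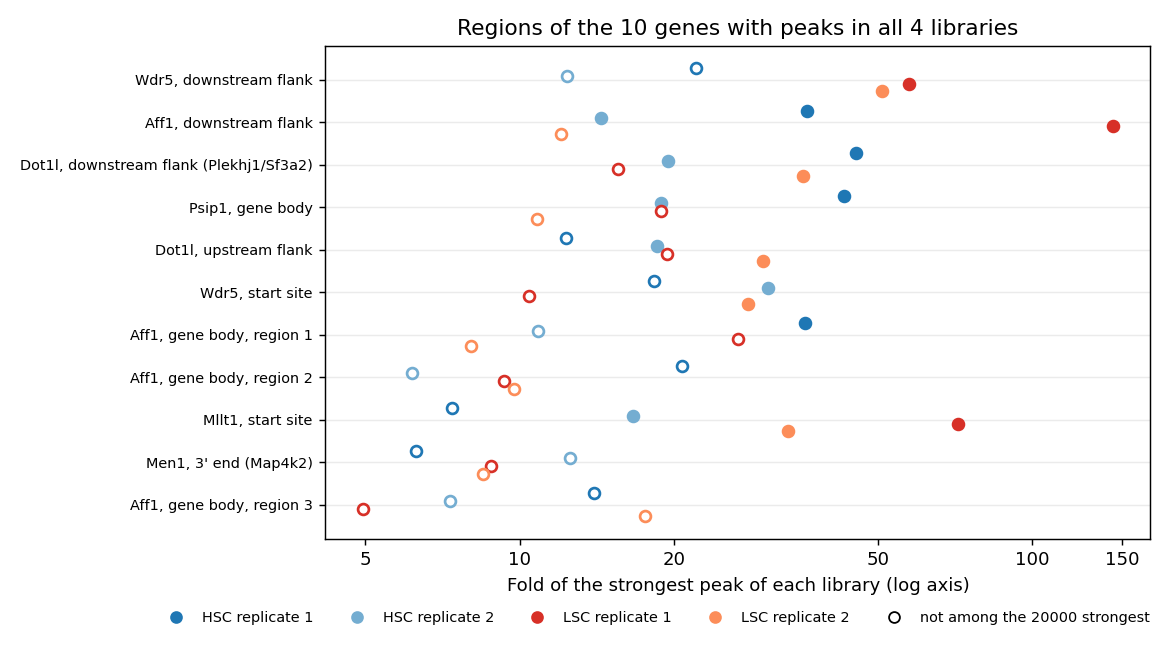
Fold (log axis) of the strongest peak of each library in the 11 merged regions that hold peaks of all 4 libraries, sorted by the weakest rank, with peaks among the 20000 strongest filled. In the downstream flank of Wdr5 both LSC points (51.0 and 57.6) are filled and both HSC points (12.4 and 22.1) are open, and no row has 4 filled points.

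Sharing of these peaks between pairs of libraries did not follow the cell type. A share also depends on how many peaks the other library has, so both directions are given. HSC replicate 1 shared 31.1% of its peaks in the set with HSC replicate 2, which shared 16.7% in return. LSC replicate 1 shared 18.0% with LSC replicate 2, which shared 25.0%. The replicate 2 libraries of both cell types overlapped in 24.4% of the HSC and 38.3% of the LSC peaks, and the replicate 1 libraries in 17.8% and 9.88%. Of the remaining mixed pairs, HSC replicate 1 and LSC replicate 2 gave 23.3% and 17.5%, and HSC replicate 2 and LSC replicate 1 gave 23.2% and 23.3%. The largest share was that of LSC replicate 2 in HSC replicate 2, and this was so over all peaks too (19.9%). Over all peaks the shares were lower for each pair, from 7.99% to 19.9%, beside 9.88% to 38.3% in the set.

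By the pattern of ranks at its ends, Wdr5 (36481, 1166, 19876 and 4539) was compared with the 3412 other genes that had a gene-end peak in every library. The smallest summed difference in log10 rank over the 4 libraries was 0.477 for Psph, which encodes phosphoserine phosphatase, with ranks of 44145, 1706, 22804 and 6708. Wasf2, an actin regulator gene, was also near, with 0.53. Both genes were chosen for ranks close to those of Wdr5. That their replicate 2 ranks are better than their replicate 1 ranks in both cell types follows from that choice. The Wdr5 rank of 19876 is that of its 3′ end peak, and the other ranks are those of start-site peaks.

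The wider pathway was read from 58 further genes in 6 lists, chosen by function. They were listed at an end in 18 (31.0%), 34 (58.6%), 18 (31.0%) and 35 (60.3%) cases, beside 10.6%, 25.1%, 11.0% and 25.5% of all genes. Listing in all 4 libraries was met by 9 of 58 (15.5%), beside 2.91% of all genes, and 15 were listed nowhere. Thus 9 of the 58 genes were listed in every library and none of the 10 was. With 10 genes such a difference cannot be resolved, and it was not tested. Both LSC and neither HSC library listed 4 of the 58, beside 0.932% of all genes, and both HSC and neither LSC library 2, beside 0.873%.

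Among 19 further MLL and COMPASS genes, 6, 11, 6 and 13 were listed. Kmt2e, a distant MLL paralog, had folds of 117, 85.9, 77.6 and 130 and was listed in all 4. So was Hcfc1, the gene of a host cell factor subunit, with folds of 50.6, 53.0, 104 and 75.6. Listed in LSC alone were Paxip1, a subunit gene of the MLL3 and MLL4 complexes (folds 34.2 and 37.1, with no HSC peak at its ends), and Wdr82, a SET1 subunit gene (36.8 and 18.6, with a peak of fold 8.23 in HSC replicate 2). Phf20, which encodes a reader of the related MOF complex, was also listed in LSC alone (50.7 and 22.7), with HSC peaks of fold 6.56 and 11.6 and an end shared with Cnbd2 and Scand1. Listed in HSC alone were Setd1a, a methyltransferase gene (36.6 and 25.8, LSC folds 19.4 and 11.4, near the end of Orai3), and Kat8, the MOF acetyltransferase gene (39.9 and 18.2, LSC replicate 2 fold 6.99, near Prss8). Only at Paxip1 did the other cell type lack a weaker peak in both libraries.

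The 16 genes of the super elongation complex and P-TEFb gave 5, 10, 6 and 11 listed genes, with 4 in every library. These were the elongation factor genes Ell (folds 55.2, 43.4, 106 and 96.8) and Ell2 (36.9, 24.7, 60.4 and 30.9), the P-TEFb inhibitor gene Hexim1 (63.1, 22.8, 148 and 51.2), and Mepce, whose product caps the 7SK RNA that carries it (44.6, 38.7, 64.4 and 26.5, near the end of Zcwpw1). Their LSC folds are not set against the HSC folds, since each belongs to its own library. Of 6 PAF1 complex genes 0, 3, 2 and 3 were listed, with Wdr61 in LSC alone (41.7 and 28.0, HSC folds 7.93 and 9.73, near Dnaja4). Of 4 partners of DOT1L, ENL or AF9 2, 2, 0 and 1 were listed. Of 8 partners of menin and LEDGF 3, 5, 1 and 4 were listed, and Hdgfl2, a paralog of Psip1, was listed in all 4 (97.6, 87.8, 97.2 and 144) at an end it shares with Ubxn6. Of 5 BET protein and associated genes 2, 3, 3 and 3 were listed, with Brd2 (32.0, 30.5, 61.7 and 36.4, near H2-DMa) and Nsd3 (41.5, 73.9, 37.9 and 112.0) in all 4.

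Marker genes of the sorted cells and of other cell types were read the same way, although a Ruvbl2 peak is not a measure of expression. The shares of all genes listed at an end, 10.6%, 25.1%, 11.0% and 25.5%, apply to these counts too. Of 7 stem cell markers 0, 1, 0 and 1 were listed, and Hlf and Fgd5 had no peak at their ends in any library. Of 8 granulocyte-monocyte markers 3, 5, 3 and 4 were listed, with Ctsg in all 4 libraries, HSC included. Listed counts were 0, 0, 0 and 1 of 4 for B cell, 0, 0, 1 and 0 of 4 for T and NK cell, 0, 1, 1 and 0 of 4 for erythroid, 0, 1, 0 and 2 of 4 for megakaryocyte and 0, 0, 0 and 0 of 4 for stroma and endothelium markers. No test was made on these lists of 4 to 8 genes, and the part of other cell types in the values above was not tested.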

How the data were processed

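Ruvbl2 CUT&Tag was analysed in 2 HSC and 2 LSC libraries, each made from 2000 to 5000 sorted cells with 17 to 20 PCR cycles, per the labels' protocols. Per the submitters' processing notes, FastQC 0.11.5, Bowtie2 2.2.9, MACS2, ChIPseeker and the build mm10 were used. Not given in the sources used here: the calling threshold, filters and treatment of duplicates. The authors deposited 1 peak list per library, with a score, a fold (the ratio of summit pileup to background), −log10 p and −log10 q values and the summit position. The lowest deposited −log10 q was 5.07. From the spacing of the folds, pileups that were whole within 0.05 over a single background were recovered for 100% of peaks of fold under 100. Where −log10 p was recomputed from them, it fell within 1% of the deposited value for 100% of peaks.

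Groups came from the sample titles, since the cell type label calls the LSC libraries stem cells of the normal kind too. Only chromosomes 1 to 19, X and Y were used, repeated intervals were collapsed and the rest ranked by −log10 p. An overlap of 1 bp counted. Genes and promoters came from RefSeq tables of GRCm38.p6, whose coordinates are those of mm10; all 58 pathway genes matched, and promoters matched 9 of the 10 genes. Regions prone to artefacts were not filtered. The genes, lists, motifs and settings were chosen with earlier results of these data known. Named were all 10 genes, the pathway genes listed in all 4 libraries or in 1 cell type alone (at most 6 per list; Kat8 was added after its values were seen), and the 3 genes nearest in rank to the gene with the best worst rank, 1 of which is not reported here. Alternatives were list lengths, ranking by fold, windows, overlap rules, a q limit and leaving out each library; start sites in place of both ends were added after seeing the data. Scripts ran in Python 3.11.15 with numpy 2.4.6 and pandas 2.3.3 and were tested on simulated data.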

Additional observations from a re-analysis of the deposited data

How the results depend on the processing

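No gene of the set was listed at an end in all 4 libraries; 1 was among the 40000 strongest peaks (Wdr5), and 4 were with the full lists (Wdr5, Dot1l, Mllt1 and Men1). Leaving out 1 library gave 0 to 2 genes for listing in every library left, 0 to 2 for LSC alone and 0 to 3 for HSC alone, the high values without HSC replicate 1, HSC replicate 2 and HSC replicate 1. Genes with a peak in the body or flanks in all 4 libraries fell from 10 to 6 among the 40000 strongest peaks. Regions with peaks of all 4 libraries numbered 11, or 5 in gene bodies alone, 1 among the 40000 strongest peaks and 13 to 19 with 1 library left out (19 without HSC replicate 1). The other settings stayed within 1.5 times these counts: 9, 11, 11, 8 and 6 settings for the 5 counts (all 4, LSC alone, HSC alone, any peak, shared regions). Where fewer libraries, a shorter list or a narrower window was used, the criterion itself changed; no other cause was tested. No paired analysis was possible because no result comes from a test. With 10 genes and 2 libraries a group, the counts cannot resolve differences of a few genes.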
